A study of Mus musculus with 44 samples.

Results

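Serine, glycine and folate-bound one-carbon units are made by a small set of enzymes, and 10 of them were followed here through mouse medulloblastoma material: Phgdh, Psat1, Psph, Shmt1, Shmt2, Mthfd1, Mthfd1l, Mthfd2, Gldc and Aldh1l2. They were taken by name, not by any measured value. All 10 of the 10 were present in each of the bulk RNA tables, among 16078 genes in the tumors and 15926 genes in the treated lines, and in both single-cell tables, among 16577 genes in fGTS2 and 17546 genes in GTML_SOX9GFP. In the open-chromatin (ATAC-seq) tables, 18 of 88981 regions and 14 of 88258 regions lay within 10 kb of the start of one of these genes.

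The study compares mouse models of MYCN-driven medulloblastoma, a tumor of the cerebellum. In GTML tumors a MYCN transgene is switched on by a doxycycline-repressible activator (tTA) expressed from the Glt1 (Slc1a2) promoter, so doxycycline shuts MYCN off. GTS tumors come from a related model built on the Sox9 promoter, whose alleles are not given in the sources used here. Bulk RNA came from 6 GTS and 8 GTML tumors, and from the cultured lines preGTS1 and GTML3, each with 3 samples under doxycycline (DOX) and 3 under DMSO, the vehicle. ATAC-seq was done in duplicate on preGTS1 and GTML3 under DOX and DMSO, on the GTS sources labelled GTS1 and GTS2, which carry no treatment label, and on the GFP and nonGFP fractions of GTML tumor material. Single-cell RNA was measured in 1 GTS library, fGTS2, and 1 GTML library, GTML_SOX9GFP. Strain, age, dose and length of treatment are not given in the sources used here. Each kind of treated line is a single line, and nothing in the labels says that its samples came from separate cultures, so the p-values speak only of the variation among those samples, part or all of which can be technical.

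Cells make serine from a glycolytic intermediate in a short pathway that Phgdh opens, Psat1 continues and Psph closes. The serine hydroxymethyltransferases then split serine into glycine and a one-carbon unit carried on tetrahydrofolate, in the cytosol (Shmt1) and in the mitochondrion (Shmt2). Mitochondrial Mthfd2 and Mthfd1l oxidise that unit and release it as formate, cytosolic Mthfd1 takes formate back into folate for thymidylate and purine synthesis, Gldc breaks glycine down, and Aldh1l2 oxidises mitochondrial formyl-folate to carbon dioxide. Several of these genes are known targets of the stress-response factor ATF4 and of MYC proteins, and proliferating cells depend on the pathway for nucleotides.

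The stretches of DNA just upstream of the genes on which the results turn are shown because the enzymes did not move alike: Phgdh, Psat1 and Mthfd2 fell further in GTML3, Shmt1 fell further in preGTS1, and Gldc had no read in GTML3. Each run is the 250 bases before the RefSeq start on GRCm38.p6, written 5′ to 3′ on the strand of the gene, which is the minus strand in all 5. Capitals mark the single match found to any of the 3 motifs searched.
Phgdh, chr3:98339970-98340219: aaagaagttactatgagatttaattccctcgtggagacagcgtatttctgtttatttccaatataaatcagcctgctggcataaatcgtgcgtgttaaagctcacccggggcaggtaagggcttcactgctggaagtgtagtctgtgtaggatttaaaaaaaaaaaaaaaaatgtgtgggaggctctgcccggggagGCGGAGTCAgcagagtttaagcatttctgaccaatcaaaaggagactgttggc
Psat1, chr19:15925060-15925309: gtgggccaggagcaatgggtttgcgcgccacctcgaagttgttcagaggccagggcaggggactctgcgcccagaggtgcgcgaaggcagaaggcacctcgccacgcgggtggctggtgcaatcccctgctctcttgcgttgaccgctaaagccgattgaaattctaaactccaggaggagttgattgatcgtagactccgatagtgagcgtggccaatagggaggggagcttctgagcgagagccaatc
Mthfd2, chr6:83317605-83317854: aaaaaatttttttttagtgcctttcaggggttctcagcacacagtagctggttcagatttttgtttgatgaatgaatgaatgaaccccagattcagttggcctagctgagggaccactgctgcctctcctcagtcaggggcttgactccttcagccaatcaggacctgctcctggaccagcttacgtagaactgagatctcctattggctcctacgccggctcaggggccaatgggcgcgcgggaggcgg
Shmt1, chr11:60811266-60811515: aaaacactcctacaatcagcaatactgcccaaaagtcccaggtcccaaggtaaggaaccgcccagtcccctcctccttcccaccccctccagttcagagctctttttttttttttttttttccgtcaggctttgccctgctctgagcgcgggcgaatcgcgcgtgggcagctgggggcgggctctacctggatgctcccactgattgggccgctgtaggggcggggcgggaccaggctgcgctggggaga
Gldc, chr19:30175442-30175691: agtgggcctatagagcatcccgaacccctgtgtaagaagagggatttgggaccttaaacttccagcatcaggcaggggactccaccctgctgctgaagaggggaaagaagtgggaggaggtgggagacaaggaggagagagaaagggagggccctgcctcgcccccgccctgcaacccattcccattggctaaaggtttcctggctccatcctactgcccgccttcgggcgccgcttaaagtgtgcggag
RefSeq windows were read for 9 of the 10 genes, in 10 entries, since Psat1 has 2 starts. Aldh1l2 has no entry. The motif TGATGNAA, the core bound by ATF4 with C/EBP partners, was in 0 of the 9 genes and in 3.45% of all 32807 promoter windows of the same length, searched on both strands. The E-box CACGTG, the core bound by MYC and MAX, was in 0 of the 9 genes and in 6.02% of all windows. The antioxidant response core TGACNNNGC was in 10.2% of all windows and in 1 of the 9 genes, Phgdh, where it lies on the opposite strand at bases −53 to −45 from the start. No position is shared between these motifs in the 9 genes, and a match, or the lack of one, only describes these letters in this window.

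The samples were first checked against their labels. Depth was 10.861 to 24.672 M reads in the treated-line RNA libraries, 0.827 to 7.773 M in the ATAC libraries of lines and GTS sources and 8.964 to 14.954 M in the GFP and nonGFP libraries. The depth of the tumor libraries is unknown. Mycn fell under DOX, with a log2 change of −4.86 in preGTS1 (limma adjusted p = 2.22e-12) and −3.59 in GTML3 (limma adjusted p = 6.72e-11). Sox9 rose, with log2 changes of 2.13 in preGTS1 and 2.24 in GTML3 (limma adjusted p = 2.65e-05 and 1.71e-05). Between GTS and GTML tumors the log2 difference was −0.63 for Mycn (limma adjusted p = 0.0956) and 1.73 for Sox9 (limma adjusted p = 0.0778), neither past the threshold of 0.05. How reads of the transgene were counted is not given in the sources used here, so the transgene and the endogenous gene cannot be told apart in these values. Of the 10 medulloblastoma and progenitor markers, 4 were present in the fGTS2 table and 6 in the GTML_SOX9GFP table, with Otx2, Crx, Zic1 and Atoh1 in neither. One RNA library stood apart: replicate 1 of GTML3 under DOX differed from the other 2 of its group with a chi-square per degree of freedom of 58.95 and 83.40, against at most 35.88 for any other pair. Without it, the number of enzymes that fell in GTML3 was still 8.

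Under DOX, with Mycn RNA lower in both lines, nearly all of these enzymes fell in both lines. In preGTS1, 9 of the 10 fell and none rose, and in GTML3, 8 of the 10 fell and none rose, all by limma on the log2 CPM (counts per 1000000 reads) over all 15926 genes, at an adjusted p under 0.05. The background was large: 68.3% of all genes passed the same test in preGTS1, 34.5% as higher and 33.7% as lower, and 65.8% passed in GTML3, 34.5% as higher and 31.4% as lower. The median log2 change of the 10 enzymes was −1.47 in preGTS1 and −2.26 in GTML3, against 0.041 and 0.048 over all genes tested. The GTML3 count and median include Gldc and Aldh1l2, which had 0 or 1 reads in each GTML3 sample and could not fall there. The medians of the lines therefore rest on unlike sets of measured enzymes. In preGTS1 the steepest fall was that of cytosolic Shmt1, and in GTML3 it was that of Phgdh and Psat1, the enzymes that begin serine synthesis.

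Phgdh, which oxidises a glycolytic phosphate ester in the committed step toward serine, had 7.49, 7.30 and 7.34 log2 CPM in preGTS1 under DOX, against 9.12, 9.14 and 9.24 under DMSO. In GTML3 it had 4.60, 5.09 and 5.07 log2 CPM under DOX, against 9.10, 8.86 and 8.86 under DMSO. The DOX samples lay below the DMSO samples in both lines with no overlap, as they did for all 9 enzymes that fell in preGTS1 and all 8 in GTML3. The groups of 73.1% of all genes did not overlap in preGTS1, 35.6% with DOX lower, and those of 70.7% in GTML3, 32.9% with DOX lower. Both lines stood close together under DMSO and far apart under DOX. The fall was 3.45-fold in preGTS1 (log2 −1.79, SE 0.115, limma adjusted p = 1.33e-09) and 16.2-fold in GTML3 (log2 −4.02, SE 0.115, limma adjusted p = 3.66e-13).

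Psat1, the aminotransferase of the next step, had 8.64, 8.59 and 8.54 log2 CPM in preGTS1 under DOX, against 9.44, 9.55 and 9.59 under DMSO. In GTML3 it had 5.63, 5.88 and 5.97 log2 CPM under DOX, against 8.87, 8.89 and 8.92 under DMSO. Its pattern resembled that of Phgdh, a modest drop in preGTS1 and a deep one in GTML3. The log2 change was −0.94 in preGTS1 (SE 0.0856, limma adjusted p = 8.47e-08) and −3.06 in GTML3 (SE 0.0856, limma adjusted p = 3.29e-13).

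Psph, the phosphatase that completes serine synthesis, moved least of the 8 enzymes measured in both lines. It had 6.24, 6.10 and 6.19 log2 CPM in preGTS1 under DOX, against 6.46, 6.66 and 6.43 under DMSO. In GTML3 it had 5.79, 5.89 and 5.92 log2 CPM under DOX, against 6.80, 6.92 and 6.86 under DMSO. The groups did not overlap in either line. The log2 change was −0.34 in preGTS1 (SE 0.0799, limma adjusted p = 0.00146) and −1.0 in GTML3 (SE 0.0799, limma adjusted p = 2.19e-08).

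**Figure D1:**
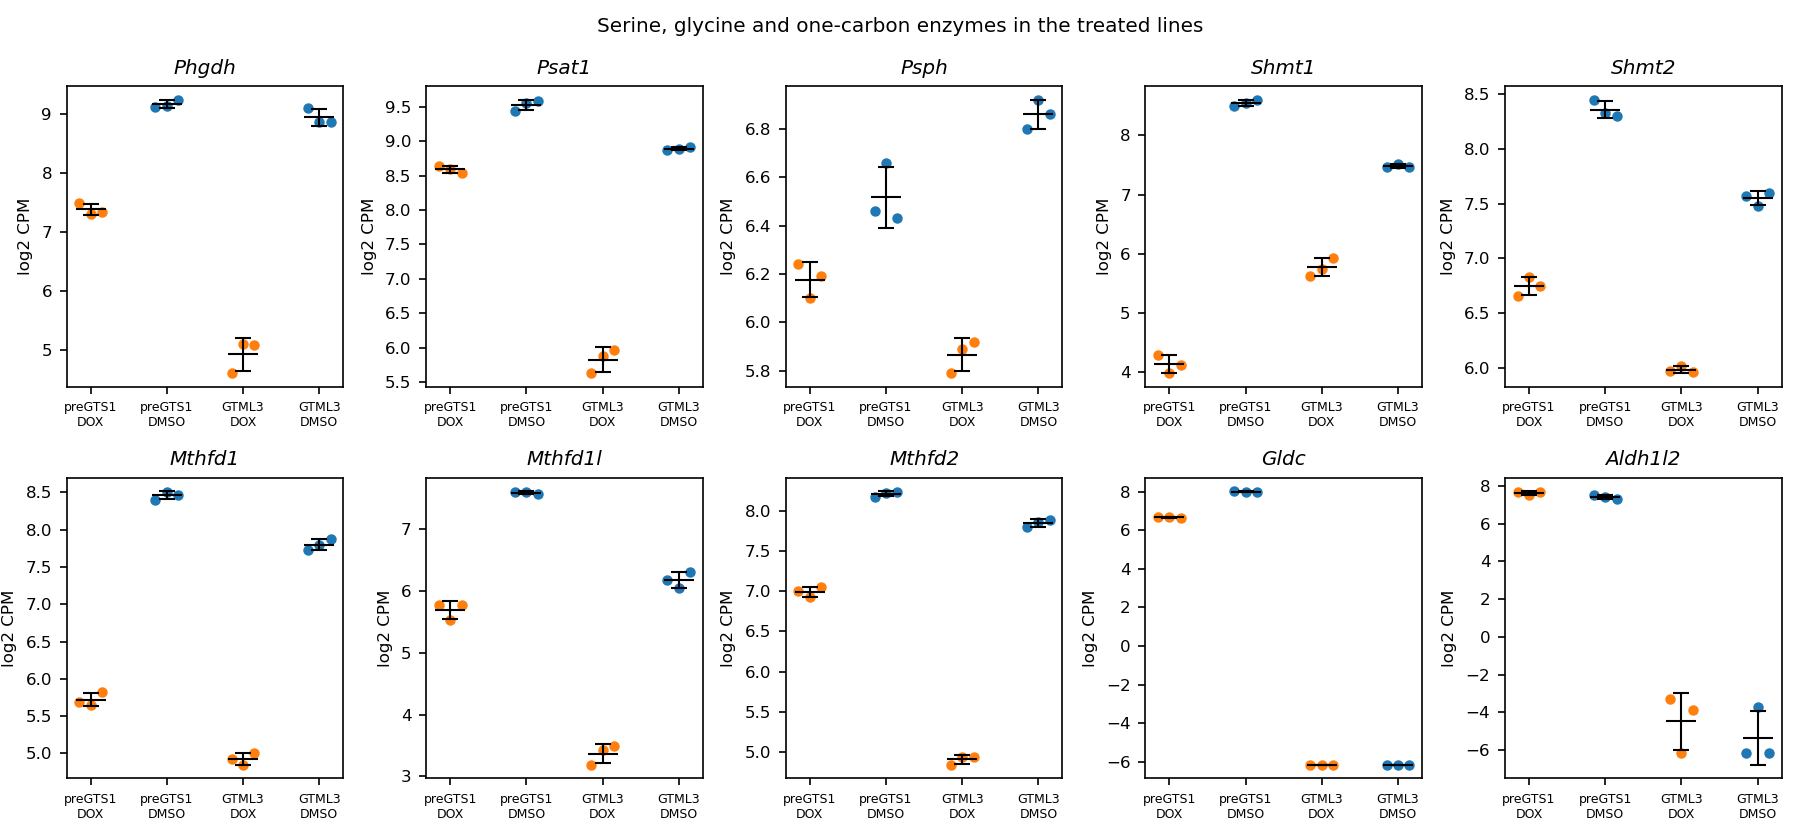
Expression of each enzyme (vertical axis, log2 CPM) in the 12 treated-line samples, DOX in orange left of DMSO in blue for preGTS1 and for GTML3. Points are samples and bars the mean ± SD of 3. Phgdh under DOX sits between 7.30 and 7.49 in preGTS1 and between 4.60 and 5.09 in GTML3, and Gldc in GTML3 lies at −6.16, the value the table gives to 0 reads.

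The hydroxymethyltransferases that consume serine fell in both lines, by like amounts in GTML3 and further for the cytosolic one in preGTS1. Shmt1, the cytosolic enzyme, had 4.29, 3.99 and 4.13 log2 CPM in preGTS1 under DOX, against 8.49, 8.54 and 8.60 under DMSO. In GTML3 Shmt1 had 5.63, 5.75 and 5.93 log2 CPM under DOX, against 7.47, 7.51 and 7.46 under DMSO. Shmt1 was higher in preGTS1 than in GTML3 under DMSO and lower in preGTS1 under DOX. Its fall was 21.3-fold in preGTS1 (log2 −4.41, SE 0.0906, limma adjusted p = 2.12e-14) and 3.26-fold in GTML3 (log2 −1.71, SE 0.0906, limma adjusted p = 1.87e-10).

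Shmt2, the mitochondrial enzyme, had 6.66, 6.83 and 6.75 log2 CPM in preGTS1 under DOX, against 8.45, 8.33 and 8.30 under DMSO. In GTML3 Shmt2 had 5.97, 6.02 and 5.96 log2 CPM under DOX, against 7.57, 7.48 and 7.60 under DMSO. Both lines lost a similar amount. The log2 change was −1.61 in preGTS1 (SE 0.0732, limma adjusted p = 2.23e-11) and −1.57 in GTML3 (SE 0.0732, limma adjusted p = 4.31e-11).

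The folate enzymes downstream of them fell as well. Mthfd2, the mitochondrial dehydrogenase and cyclohydrolase, had 7.01, 6.93 and 7.05 log2 CPM in preGTS1 under DOX, against 8.18, 8.23 and 8.24 under DMSO. In GTML3 Mthfd2 had 4.84, 4.94 and 4.94 log2 CPM under DOX, against 7.80, 7.87 and 7.89 under DMSO. The log2 change of Mthfd2 was −1.22 in preGTS1 (SE 0.0678, limma adjusted p = 2.35e-10) and −2.94 in GTML3 (SE 0.0678, limma adjusted p = 1.60e-13), so that it followed the order seen for Phgdh and Psat1.

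Mthfd1l, the mitochondrial formate-releasing synthetase, had 5.77, 5.53 and 5.77 log2 CPM in preGTS1 under DOX, against 7.60, 7.60 and 7.56 under DMSO. In GTML3 Mthfd1l had 3.19, 3.43 and 3.49 log2 CPM under DOX, against 6.17, 6.05 and 6.31 under DMSO. It was lower in GTML3 than in preGTS1 under either treatment. Its log2 change was −1.90 in preGTS1 (SE 0.0999, limma adjusted p = 1.22e-10) and −2.81 in GTML3 (SE 0.0999, limma adjusted p = 2.24e-12).

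Mthfd1, the cytosolic enzyme that returns formate to the folate pool, had 5.69, 5.65 and 5.82 log2 CPM in preGTS1 under DOX, against 8.40, 8.51 and 8.47 under DMSO. In GTML3 Mthfd1 had 4.93, 4.85 and 5.0 log2 CPM under DOX, against 7.73, 7.80 and 7.87 under DMSO. The drop was of like size in both lines. Its log2 change was −2.74 in preGTS1 (SE 0.0747, limma adjusted p = 1.42e-13) and −2.88 in GTML3 (SE 0.0747, limma adjusted p = 2.21e-13).

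Gldc and Aldh1l2 separated the lines outright. Gldc, the decarboxylase of the glycine cleavage system, had 0 reads in all 6 GTML3 libraries. In preGTS1 it had 6.68, 6.71 and 6.67 log2 CPM under DOX, against 8.04, 8.01 and 8.01 under DMSO, a 2.52-fold fall (log2 −1.33, SE 0.261, limma adjusted p = 0.000298). Aldh1l2, the mitochondrial formyltetrahydrofolate dehydrogenase, had 1, 0 and 1 reads in GTML3 under DOX and 0, 1 and 0 reads under DMSO. In preGTS1 it had 7.67, 7.49 and 7.67 log2 CPM under DOX, against 7.52, 7.41 and 7.31 under DMSO, the single enzyme of the 10 that did not fall there. Its log2 change in preGTS1 was 0.20 (SE 0.75, limma adjusted p = 0.829), with an error that is shared with the near-empty GTML3 libraries. DESeq2 on the recovered reads gave 0.26 with an adjusted p of 0.0133.

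Genes around the 10 enzymes were counted from lists. Of 12 genes of the folate cycle and its carriers, 2 rose and 9 fell under DOX in preGTS1, and 2 rose and 8 fell in GTML3, with medians of −0.77 and −0.44. All 7 thymidylate and purine genes fell in both lines, with medians of −2.21 in preGTS1 and −2.11 in GTML3. Tyms, the thymidylate synthase that uses the one-carbon unit of methylene-folate, changed by −3.59 in preGTS1 and −2.99 in GTML3 on the log2 scale, and Ppat, the first enzyme of purine synthesis, by −2.86 and −2.61.

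The partners of Gldc in glycine cleavage did not move together. Gcsh, the lipoyl carrier protein, fell, with log2 changes of −2.13 in preGTS1 and −1.89 in GTML3, as did Dld, which reoxidises the lipoyl group, with −0.97 and −0.49. Amt, the aminomethyltransferase, rose, with log2 changes of 1.20 in preGTS1 and 2.84 in GTML3. Of 16 genes of serine and glycine transport and use, 8 rose and 4 fell in preGTS1 and 7 rose and 5 fell in GTML3, with medians of 0.22 and 0.19. Of 10 genes of the methionine cycle and transsulfuration, 2 rose and 7 fell in preGTS1 and 1 rose and 5 fell in GTML3. Mtap, the methylthioadenosine phosphorylase of methionine salvage, changed by −2.2 in preGTS1 and −3.06 in GTML3, and Ahcy, the hydrolase of S-adenosylhomocysteine, by −2.13 and −1.51.

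The cell cycle moved with these results. All 18 S-phase genes fell in both lines, and summed to 663.5 to 681.9 CPM in preGTS1 under DOX against 5064 to 5189 under DMSO, and to 646.3 to 791.1 CPM in GTML3 under DOX against 5173 to 5454 under DMSO. Of the 18 G2/M genes, 18 fell in preGTS1 and 17 in GTML3, with sums of 409.6 to 506.3 against 5632 to 6315 CPM and 789 to 856.5 against 6129 to 6470 CPM for DOX against DMSO. Neuron markers summed to 1296 to 1393 CPM under DOX against 327.6 to 354.7 under DMSO in preGTS1, and to 1148 to 1209 against 757.9 to 770.2 in GTML3. Astroglial markers summed to 1132 to 1209 against 473.6 to 484.3 CPM in preGTS1 and to 734.3 to 820.9 against 332.3 to 345.8 in GTML3, with Gfap, Aqp4 and S100b not in the table. Of the 7 astroglial genes tested, 4 rose and 2 fell in preGTS1, with a median log2 change of 1.04. In GTML3 3 rose and 2 fell, with a median of 0.002. There Slc1a2 had 8.90 log2 CPM under DOX against 6.53 under DMSO, while Slc1a3 had 2.89 against 5.53. The part of the cell cycle and of these marker genes in the fall of the enzymes was not tested.

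The size of the DOX response differed between preGTS1 and GTML3 for most of the enzymes, tested as an interaction in the limma model (response of preGTS1 less that of GTML3). Of the 8 enzymes measured in both lines, 5 had a higher value, meaning a smaller fall in preGTS1, and 1 had a lower one. By comparison, 42.2% of all genes passed this test, 17.1% as higher and 25.1% as lower. Phgdh, Psat1 and Mthfd2 differed most in that direction. The difference in log2 response was 2.23 for Phgdh (SE 0.163, limma adjusted p = 6.34e-08), 2.13 for Psat1 (SE 0.121, limma adjusted p = 6.33e-09) and 1.73 for Mthfd2 (SE 0.0959, limma adjusted p = 5.15e-09).

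The remaining enzymes differed less or in the opposite sense. The difference was 0.91 for Mthfd1l (SE 0.141, limma adjusted p = 0.000115) and 0.66 for Psph (SE 0.113, limma adjusted p = 0.000277). For Shmt1 it was −2.70 (SE 0.128, limma adjusted p = 1.17e-09), a deeper fall in preGTS1. No difference was detected for Shmt2 (−0.043, SE 0.104, limma adjusted p = 0.765) or for Mthfd1 (0.14, SE 0.106, limma adjusted p = 0.31). Gldc also passed the test (−1.33, SE 0.369, limma adjusted p = 0.00908) and Aldh1l2 did not (−0.69, SE 1.06, limma adjusted p = 0.631), but with 0 or 1 reads in GTML3 neither value measures a difference in response.

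**Figure D2:**
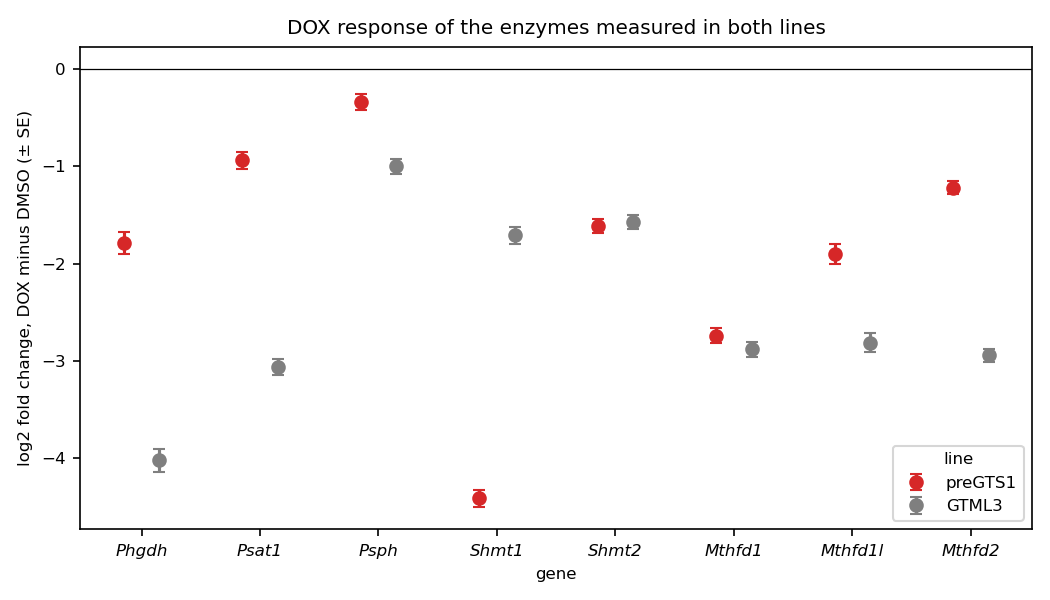
Log2 change under DOX (DOX over DMSO, vertical axis) of the 8 enzymes measured in both lines, preGTS1 left of GTML3, with bars for ± SE of the limma fit. Phgdh changed by −1.79 in preGTS1 and −4.02 in GTML3, Shmt1 by −4.41 and −1.71, and Shmt2 by −1.61 and −1.57.

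A list of 30 other ATF4 targets was counted in the same fits. Under DOX 13 rose and 11 fell in preGTS1, with a median of 0.039, and 5 rose and 20 fell in GTML3, with a median of −0.87. In the interaction 21 of the 30 were higher and 0 lower in preGTS1, with a median of 0.78 against −0.098 over all genes. The median over the 10 enzymes, 0.40, includes Gldc and Aldh1l2, whose values measure no difference in response, so it is not set beside that of the list. Slc7a11, the cystine transporter, differed by 3.25 (SE 0.286, limma adjusted p = 6.09e-07). Atf4 itself changed by −0.39 in preGTS1 and −0.85 in GTML3, a difference of 0.46 (SE 0.135, limma adjusted p = 0.0132). The thymidylate and purine genes had 1 higher and 3 lower of 7 in the same interaction, with a median of −0.25.

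Set against GTML3 under the same treatment, preGTS1 held more of most of the enzymes in the DMSO arm and in the DOX arm. Under DMSO 8 of the 10 were higher and Psph was lower, where 66.4% of all genes passed, 38.5% as higher and 27.9% as lower, with a median over all genes of 0.13. Gldc and Aldh1l2 are among the 8. Both had 0 or 1 reads in each GTML3 sample and met the filter only through preGTS1, so their direction was fixed in advance. The log2 difference under DMSO was 1.41 for Mthfd1l (SE 0.0999, limma adjusted p = 7.00e-09), 1.07 for Shmt1, 0.81 for Shmt2, 0.66 for Mthfd1, 0.63 for Psat1 and 0.36 for Mthfd2. Psph was lower by 0.35 on the log2 scale (log2 −0.35, limma adjusted p = 0.00129). Phgdh differed by 0.22 (SE 0.115, limma adjusted p = 0.0974), which did not pass, and passed at 0.0486 when GTML3 DMSO replicate 1 was left out.

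Under DOX all 10 enzymes differed between the lines, 9 higher and Shmt1 lower in preGTS1, where 72.0% of all genes passed, 36.9% as higher and 35.0% as lower. Gldc and Aldh1l2 are among the 9, and their direction was again fixed by the filter. The log2 difference was 2.76 for Psat1 (limma adjusted p = 3.19e-13), 2.46 for Phgdh (limma adjusted p = 3.54e-11), 2.32 for Mthfd1l and 2.09 for Mthfd2 (limma adjusted p = 5.15e-13). Smaller differences of 0.80, 0.77 and 0.31 were measured for Mthfd1, Shmt2 and Psph. Shmt1 was lower in preGTS1 by 1.64 on the log2 scale (log2 −1.64, limma adjusted p = 2.43e-10). Of the ATF4 targets 26 were higher and 2 lower in preGTS1 under DMSO, and 28 higher and 0 lower under DOX.

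Gldc and Aldh1l2 marked preGTS1 under both conditions. Gldc had 5233 reads over the 3 preGTS1 DOX libraries and 0 over the 3 GTML3 DOX libraries, at least 1481-fold higher in CPM against a floor of 3 reads over the group. Under DMSO it had 16601 reads in preGTS1 and 0 in GTML3, at least 4929-fold higher. Aldh1l2 had 9972 reads in preGTS1 and 2 in GTML3 under DOX, a CPM ratio of 4233, for which counting error alone allows 1172 to 3.496e+04 at 95%. Under DMSO it had 10926 reads in preGTS1 and 1 in GTML3, 9733 times as high in CPM, where counting error allows 1746 to 3.845e+05. The intervals cover counting error only. With 1 line of each kind, a difference between models and a difference between lines cannot be told apart.

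The genes whose profile over the 12 treated-line samples was nearest to that of an enzyme were found by the root mean square difference of log2 CPM after each gene was centred on its mean, over 15925 other genes. Nearest to Phgdh were Hist1h3a at 0.38, Hist1h2ap at 0.39 and Tnfaip8 at 0.40. Nearest to Psat1 were Stc2 at 0.21, Mthfd2 at 0.27 and Pttg1 at 0.28, and among the nearest to Mthfd2 were Gpc6 at 0.22 and Ybx3 at 0.24, with Psat1 at rank 4. Mthfd1l stood at rank 9 for Psat1, while Shmt1 stood at rank 9390. The samples share lines and treatments, so these values only describe likeness of pattern. By the same measure over the 14 tumors, with 15707 other genes, the ranks were different. For Psat1, Mthfd2 stood at rank 273, Mthfd1l at 1760 and Shmt1 at 2392. For Mthfd2, Shmt1 stood at rank 72 and Psat1 at 1804.

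Open chromatin near the starts of the enzymes passed the test under DOX in few regions. The duplicates differed with a chi-square per degree of freedom of 1.85 to 2.06, where counting noise alone gives about 1. Each pair was merged for CPM, and the tests compare libraries rather than conditions. Counting intervals on merged reads leave out this extra spread and are too narrow. Of the 18 regions, 2 were lower under DOX in preGTS1 and 1 in GTML3, by limma on log2(CPM + 1) over all regions, against 3.73% of all regions called in preGTS1, 2.04% as higher and 1.70% as lower, and 3.92% in GTML3, 1.89% as higher and 2.02% as lower. This split over all regions depended on the scaling, being 1.16% higher and 2.52% lower in preGTS1 with median-centred libraries, and 0.702% higher and 3.45% lower in GTML3 with edgeR. The folds on this scale understate changes of weak regions. All coordinates of these regions are on mm9.

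The Phgdh start region (chr3:98142536-98144195) had 41.9 and 42.2 CPM in preGTS1 under DOX, against 61.2 and 57.9 CPM under DMSO. In GTML3 it had 54.7 and 44.7 CPM under DOX, against 89.2 and 89.2 CPM under DMSO. The DOX libraries were lower in both lines, with a log2 difference of −0.49 in preGTS1 (limma adjusted p = 0.129) and −0.84 in GTML3 (SE 0.178, limma adjusted p = 0.0186). The GTML3 call was lost when either DMSO library was left out.

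The Psat1 start region (chr19:15998687-16000613) had 54.3 and 51.3 CPM in preGTS1 under DOX, against 93.2 and 80 CPM under DMSO, a log2 difference of −0.70 (SE 0.148, limma adjusted p = 0.017). The Mthfd1l start region (chr10:6372335-6373866) had 71.6 and 69.4 CPM in preGTS1 under DOX, against 103 and 109 CPM under DMSO, a log2 difference of −0.58 (SE 0.138, limma adjusted p = 0.0286). Both calls were lost when any of the 4 libraries was left out. The start region of Shmt1 (chr11:60624306-60625175), the gene whose RNA fell most in preGTS1, had 21.3 and 22.6 CPM under DOX, against 22.3 and 20.5 CPM under DMSO (log2 0.035, limma adjusted p = 0.975).

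Between sources, the open chromatin at Gldc and Aldh1l2 followed the RNA of the lines. The Gldc start region (chr19:30249394-30250263) had 13.2 and 17.6 CPM in preGTS1 under DMSO, against 0 and 2.39 CPM in GTML3 under DMSO, with 226 reads against 4. The Aldh1l2 start region (chr10:82995984-82997155) had 30.2 and 25.9 CPM in preGTS1 under DMSO, against 3.43 and 2.39 CPM in GTML3 under DMSO, with 405 reads against 10. Both regions were well covered in preGTS1 and almost empty in GTML3. The ratio from reads was 13.3 for Gldc (95% counting interval 5.119 to 49.19) and 9.53 for Aldh1l2 (5.127 to 20.02), and limma gave log2 differences of 3.14 (SE 0.602, adjusted p = 0.00178) and 2.90 (SE 0.445, adjusted p = 0.000305). With 1 library left out the Gldc difference ran over 2.26 to 4.02. In all, 4 of the 18 regions differed between preGTS1 and GTML3 under DMSO, against 17.7% of all regions, 12.3% as higher and 5.47% as lower, and the median over all regions was 0.28. The third was a second Gldc region at 1113 bases from the start (log2 2.2, limma adjusted p = 0.00753) and the fourth the Phgdh start, lower in preGTS1 (log2 −0.58, limma adjusted p = 0.0327). The Phgdh call was lost without any 1 of the 4 libraries, at an adjusted p of 0.118 to 0.205, and that of the second Gldc region without GTML3 DMSO replicate 2 or preGTS1 DMSO replicate 1. With median-centred libraries the background was 6.27% higher and 11.4% lower, and 9 of the 18 regions passed, 3 higher and 6 lower.

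The GTS sources were set against GTML3 under DMSO, whose libraries both comparisons share, and GTS1 and GTS2 were not tested against each other. The share of regions called was near that of all regions in GTS2. In GTS1 4 regions were higher and 6 lower than in GTML3, against 31.7% of all regions called, 16.7% as higher and 15.1% as lower. In GTS2 2 were higher and 6 lower, against 39.3% of all regions called, 17.2% as higher and 22.1% as lower, with a median over all regions of −0.23. With median-centred libraries the GTS2 background was 20.9% higher and 17.2% lower, and 3 regions were higher and 3 lower. At Aldh1l2 GTS1 had 53 and 45.1 CPM and GTS2 15.2 and 20.5 CPM, both above the 3.43 and 2.39 CPM of GTML3 (log2 3.69 and 2.27, limma adjusted p = 8.96e-06 and 0.000522). At Gldc GTS1 had 15 and 13.4 CPM (log2 3.04, limma adjusted p = 0.000806, and 2.16 to 3.93 on the log2 scale with 1 library left out), while the GTS2 to GTML3 ratio from reads was 0.902 (95% counting interval 0.132 to 5.33).

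Other regions set GTS1 and GTS2 apart from GTML3 too. The Phgdh start was lower in GTS2, with 23.6 and 33.2 CPM against 89.2 and 89.2 CPM in GTML3 (log2 −1.64, limma adjusted p = 1.54e-06), and lower in GTS1 (log2 −0.55, limma adjusted p = 0.0237), a call that was lost without any 1 of its 4 libraries. The Shmt1 start was higher in GTS1, with 55.3 and 50.8 CPM against 29.7 and 15 CPM in GTML3 (log2 1.29, limma adjusted p = 0.00193). A region 6143 bases from the Mthfd1l start (chr10:6366995-6367652) had 35.3 and 31.2 CPM in GTS1, against 0 and 2.39 CPM in GTML3 (log2 4.21, limma adjusted p = 4.36e-05, and 3.33 to 5.09 on the log2 scale with 1 library left out), while the Mthfd1l start itself was lower in GTS1 (log2 −1.19, limma adjusted p = 5.76e-06). The untreated or treated state of GTS1 and GTS2 is not labelled, so source and treatment cannot be told apart.

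**Figure D3:**
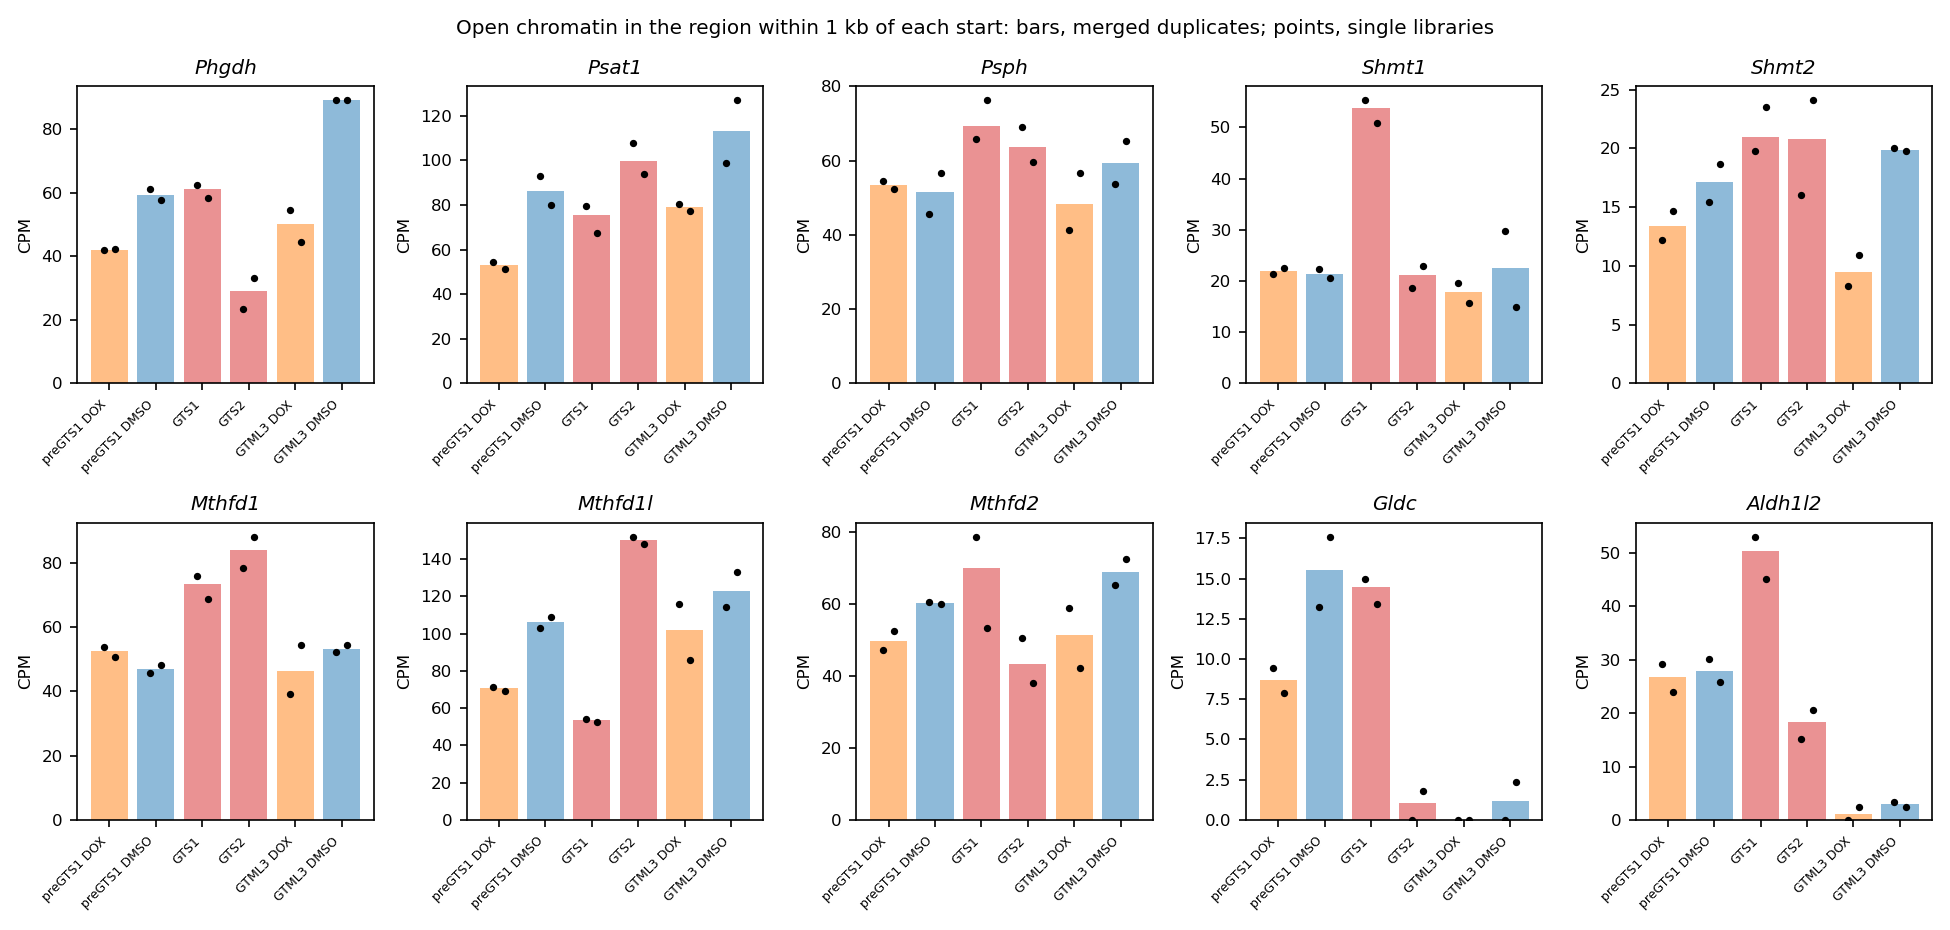
Open chromatin (vertical axis, CPM, own scale per panel) in the region within 1 kb of each start, for preGTS1 under DOX and DMSO, GTS1, GTS2, and GTML3 under DOX and DMSO. Bars are merged duplicates and points single libraries. The Gldc region has 13.2 and 17.6 CPM in preGTS1 under DMSO against 0 and 2.39 CPM in GTML3 under DMSO.

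In the GFP and nonGFP fractions 1 of 14 regions passed, against 3.45% of all regions, 2.32% as higher and 1.13% as lower (1.72% higher and 2.33% lower with median-centred libraries, 2.07% and 1.58% with edgeR). The Mthfd1 start region (chr12:77355681-77357537) had 79.2 and 81.2 CPM in GFP and 97.7 and 98.6 CPM in nonGFP (log2 −0.29, SE 0.0642, limma adjusted p = 0.001). The GFP libraries were the lower of the pair. Without either nonGFP library the adjusted p was 0.0538 and 0.0623. The Phgdh start had 42.1 and 41.5 CPM in GFP and 45.2 and 41.9 CPM in nonGFP, and the Aldh1l2 start 44.6 and 43.1 CPM in GFP and 47.5 and 45.3 CPM in nonGFP, so that the Aldh1l2 start was covered in this GTML tumor material, while it had 10 reads in GTML3 under DMSO in a table scaled separately. The Gldc start had 4.35 and 3.9 CPM in GFP and 3 and 4.55 CPM in nonGFP.

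In whole tumors few of the enzymes differed between GTS and GTML, a share near that of all genes. Of the 10, 1 was lower in GTS and none higher, against 5.88% of all 15708 genes called, 3.92% as higher and 1.96% as lower (2.72% higher and 0.547% lower with median-centred libraries). No enzyme had groups that did not overlap, against 1.85% of all genes, 0.809% with GTS lower. The median log2 difference of the 10 was −0.49, against −0.075 over all genes. In bulk samples fewer cells of a type and less RNA per cell cannot be told apart. The tumor columns carry the number 120 or 263, with 2 GTS and 6 GTML tumors under 120 and 4 GTS and 2 GTML tumors under 263. No label says what these numbers stand for. The mean difference between them, with the group kept in the model, was at most 1.8e-14 on the log2 scale in any gene of the deposited values. The tumor values are therefore read as adjusted for the number before deposit, not as levels as measured. This makes the errors of a fit without the number as a term too small.

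Shmt1 was the enzyme that passed. It had 5.50, 5.99 and 7.41 log2 CPM as the lowest, median and highest of 6 GTS tumors, against 7.06, 7.24 and 7.63 of 8 GTML tumors. GTS tumors 2 and 3 lay within the GTML range and the other 4 below it. The log2 difference was −0.97 (SE 0.267, limma adjusted p = 0.0466), −0.78 within number 120 and −1.20 within number 263. With the column number as a term the adjusted p was 0.131, with median-centred libraries 0.12, and with 1 tumor left out 0.00981 to 0.114, under 0.05 only without GTS tumor 2 or 3. S-phase genes moved with it: they summed to 712.7, 2802, 1811, 1077, 1072 and 1342 CPM in GTS tumors 1 to 6, where tumors 2 and 3 were also highest, and to 2154 to 3395 CPM in the GTML tumors. Their part in the Shmt1 difference was not tested.

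**Figure D4:**
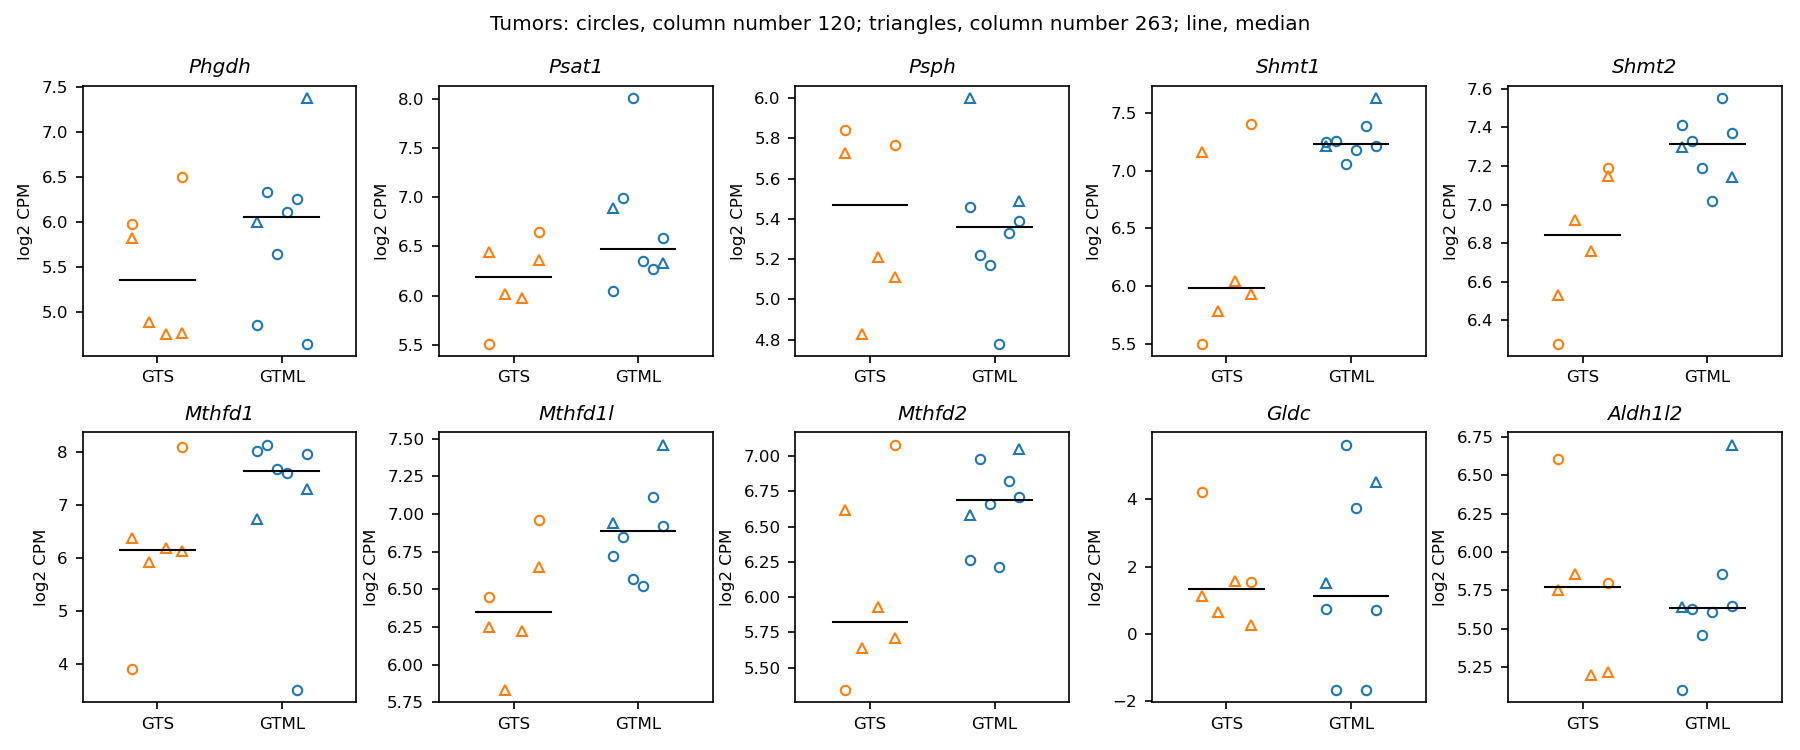
Expression of each enzyme (vertical axis, log2 CPM) in 6 GTS and 8 GTML tumors. Circles are tumors numbered 120, triangles those numbered 263, and lines group medians. Shmt1 has a median of 5.99 in GTS and 7.24 in GTML, and the groups overlap for every enzyme.

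The serine synthesis genes spread widely between tumors. Phgdh had 4.76, 5.36 and 6.5 log2 CPM as the lowest, median and highest in GTS, against 4.65, 6.05 and 7.38 in GTML (log2 −0.45, limma adjusted p = 0.483). Its difference was 0.59 within number 120 and −1.63 within number 263, opposite in sign. Psat1 had 5.51, 6.19 and 6.65 in GTS, against 6.05, 6.47 and 8.01 in GTML (log2 −0.53, limma adjusted p = 0.234). Its difference kept its sign within the numbers, at −0.63 under 120 and −0.41 under 263. Psph had 4.83, 5.47 and 5.84 in GTS, against 4.78, 5.36 and 6.0 in GTML (log2 0.060, limma adjusted p = 0.88), with differences of 0.58 under 120 and −0.52 under 263.

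Of the enzymes that handle folate, Shmt2, Mthfd2, Mthfd1l and Mthfd1 did not pass the test. Shmt2 had 6.28, 6.84 and 7.19 log2 CPM in GTS, against 7.02, 7.31 and 7.55 in GTML (log2 −0.48, limma adjusted p = 0.0648). Mthfd2 had 5.34, 5.82 and 7.08 in GTS, against 6.21, 6.69 and 7.05 in GTML (log2 −0.60, limma adjusted p = 0.146). Within the column numbers the difference was −0.58 under 120 and −0.38 under 263 for Shmt2, and −0.40 under 120 and −0.84 under 263 for Mthfd2. Mthfd1l had 5.83, 6.35 and 6.96 in GTS, against 6.52, 6.88 and 7.46 in GTML (log2 −0.49, limma adjusted p = 0.111), with differences of −0.075 under 120 and −0.96 under 263. Mthfd1 had 3.90, 6.15 and 8.10 in GTS, against 3.5, 7.64 and 8.14 in GTML (log2 −1.01, SE 0.719, limma adjusted p = 0.366), the widest range of these enzymes. Without GTS tumor 2, Shmt2, Mthfd1l and Mthfd2 passed as well, with limma adjusted p-values of 0.0338, 0.0486 and 0.0353. Over all genes 110 to 1530 passed with 1 tumor left out, against 924 with all tumors. With the column number as a term and all tumors kept, the limma adjusted p-values of Shmt2, Mthfd1l and Mthfd2 were 0.164, 0.228 and 0.268.

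Gldc and Aldh1l2, which split the lines, did not split the tumors. Gldc had 0.27, 1.34 and 4.23 log2 CPM in GTS, against −1.67, 1.13 and 5.62 in GTML (log2 −0.12, SE 1.14, limma adjusted p = 0.957), with differences of 1.64 and −2.10 within numbers 120 and 263. Aldh1l2 had 5.2, 5.77 and 6.61 in GTS, against 5.10, 5.64 and 6.70 in GTML (log2 0.033, limma adjusted p = 0.948), with differences of 0.65 and −0.66 within the numbers, and was measured in every tumor of both kinds. Among the surrounding genes, 1 of 13 folate cycle genes was higher in GTS, Aldh1l1, the cytosolic counterpart of Aldh1l2 (log2 2.4), and 3 were lower, among them Mtr, the methionine synthase (log2 −2.22), and Slc19a1, the reduced folate carrier (log2 −0.99). Of the 7 thymidylate and purine genes 1 was lower, Pfas (log2 −0.69). With the column number as a term none of these list genes passed, at limma adjusted p-values of 0.121 for Aldh1l1, 0.122 for Mtr, 0.0884 for Slc19a1 and 0.0669 for Pfas. Of the ATF4 targets 0 passed in either direction. Microglial markers summed to 200 to 467.4 CPM in GTS and 85.53 to 372.2 CPM in GTML, and astroglial markers to 682 to 2327 CPM in GTS and 724.5 to 1633 CPM in GTML, and their part in these values was not tested.

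Single cells gave the levels in 1 library of each kind, so these values have no replicate and no test. Tumor cells were not told apart from other cells. The fGTS2 library held 4498 cells with a median of 20893.5 UMIs (counted molecules) and the GTML_SOX9GFP library 4645 cells with a median of 18744, and 6 barcodes were shared. The 10 enzymes summed to less in fGTS2, at a ratio of 0.549 (95% counting interval 0.544 to 0.555). Neuron markers reached 28.42 CPM (UMIs per 1000000) in fGTS2 and 295.6 in GTML_SOX9GFP, G2/M genes summed to 2052 CPM in fGTS2 and 2960 in GTML_SOX9GFP, S-phase genes to 1024 in fGTS2 and 1091 in GTML_SOX9GFP, and their part in this was not tested. Mycn stood at 48.37 CPM in fGTS2 and 64.98 in GTML_SOX9GFP, and Sox9 was 5.64-fold higher in fGTS2.

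The serine synthesis enzymes were all lower in fGTS2, Phgdh most of them. Phgdh had 102.6 CPM in fGTS2 and 310.5 in GTML_SOX9GFP, a ratio of 0.33 (95% counting interval 0.323 to 0.338). Psat1 had 151.6 CPM in fGTS2 and 216.1 in GTML_SOX9GFP (ratio 0.701), and Psph had 43.8 in fGTS2 and 64.43 in GTML_SOX9GFP (ratio 0.68). The hydroxymethyltransferases and Mthfd2 were lower too. Shmt2 had 78.66 CPM in fGTS2 and 182.9 in GTML_SOX9GFP (ratio 0.43), and Mthfd2 had 142.4 in fGTS2 and 241.9 in GTML_SOX9GFP (ratio 0.589). Shmt1 had 33.4 CPM in fGTS2 and 40.43 in GTML_SOX9GFP (ratio 0.826).

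Mthfd1 and Mthfd1l ran the other way. Mthfd1 had 40.53 CPM in fGTS2 and 34.84 in GTML_SOX9GFP, a ratio of 1.16 (95% counting interval 1.11 to 1.22). Mthfd1l had 26 CPM in fGTS2 and 18.92 in GTML_SOX9GFP, a ratio of 1.37 (1.29 to 1.46). Gldc was all but absent, with 8 UMIs in fGTS2 and 5 in GTML_SOX9GFP. Aldh1l2 had 26 UMIs in fGTS2, or 0.252 CPM (0.165 to 0.369), and 1639 UMIs in GTML_SOX9GFP, or 17.11 CPM (16.29 to 17.96), a ratio of 0.0147. The GTML library held Aldh1l2 RNA where the GTML3 line had at most 1 read in a sample, and the GTS library held little where preGTS1 had it in every sample.

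Within each library the enzymes rose with the cell cycle share. Cells were ranked by the share of their UMIs in the S-phase and G2/M lists and cut into 3 equal ranges, which are not cell types. Median depth also rose, at 17859, 20162 and 27583 UMIs in fGTS2 and 15652, 19083 and 22426 in GTML_SOX9GFP from the lowest to the highest. The 10 enzymes summed to 321.5, 578.7 and 854.1 CPM in fGTS2, a ratio of highest to lowest of 2.66 (95% counting interval 2.60 to 2.72). They summed to 767.1, 1166 and 1352 in GTML_SOX9GFP, a ratio of 1.76 (1.73 to 1.79). The cuts, made within each library, lay at 0.0575% and 0.356% of UMIs in fGTS2 and at 0.18% and 0.473% in GTML_SOX9GFP. Ranges of the same name thus hold cells of unlike cell cycle share, and the ratios of the libraries do not compare like shares. The ratio was the larger in fGTS2, and the lowest range of GTML_SOX9GFP held nearly as much as the highest range of fGTS2. Within 10% of the cut values lay 175 and 297 cells in fGTS2 and 220 and 418 in GTML_SOX9GFP.

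The gradient differed between enzymes. Shmt1 had 7.606, 29.51 and 54.03 CPM in fGTS2, a ratio of 7.1 (95% counting interval 6.18 to 8.2), and 22.92, 52.8 and 42.04 in GTML_SOX9GFP, highest in the middle range. Mthfd1 had the same order in GTML_SOX9GFP, at 27.46, 39.79 and 35.75. These middle peaks depended on the list: ranked by S-phase genes alone, Shmt1 had 20.05, 38.8 and 57.8 and Mthfd1 24.77, 33.02 and 44.49 in GTML_SOX9GFP, highest in the top range. Mthfd2 had 45.74, 122.2 and 224.1 in fGTS2 (ratio 4.9) and 127.7, 241.3 and 324.7 in GTML_SOX9GFP (ratio 2.54). Among the serine synthesis genes, Phgdh had 63.47, 107.2 and 125.7 in fGTS2 (ratio 1.98) and 247.3, 334.8 and 334.3 in GTML_SOX9GFP (ratio 1.35). Its highest range in fGTS2 lay below its lowest in GTML_SOX9GFP. Psat1 had 89.41, 137.4 and 205.2 in fGTS2 (ratio 2.29) and 137.8, 213.3 and 275.1 in GTML_SOX9GFP (ratio 2). Psph had 23.45, 41.04 and 59.83 in fGTS2 (ratio 2.55) and 49.85, 65.81 and 73.7 in GTML_SOX9GFP (ratio 1.48). The ratios of Shmt2, Mthfd1 and Mthfd1l lay at 1.88, 2.24 and 2.15 in fGTS2 and at 1.68, 1.3 and 2.03 in GTML_SOX9GFP, so that Shmt1 and Mthfd2 had the steepest gradients in fGTS2 of the 8 enzymes other than Gldc and Aldh1l2. Mycn did not follow this order, with highest to lowest ratios of 0.918 in fGTS2 and 0.705 in GTML_SOX9GFP.

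**Figure D5:**
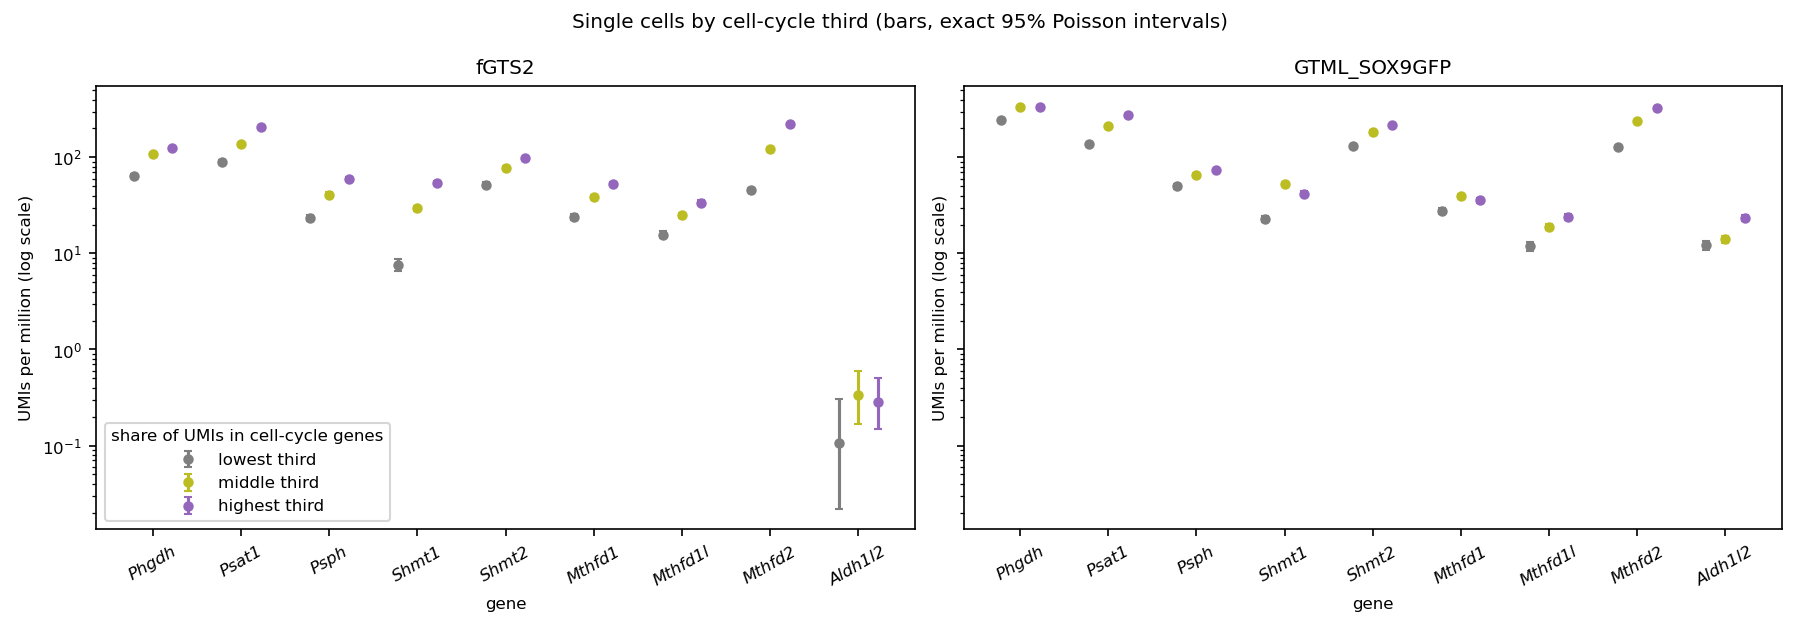
CPM (UMIs per 1000000, vertical axis, log scale) of 9 enzymes in the lowest, middle and highest range of cell cycle share, in fGTS2 and in GTML_SOX9GFP. Bars are exact 95% Poisson intervals, which cover counting error only. The ranges are cut within each library, so those of the same name hold unlike cell cycle shares. Shmt1 in fGTS2 runs over 7.606, 29.51 and 54.03, and Phgdh in every range of fGTS2 stays below every range of GTML_SOX9GFP.

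SOX9-positive cells are the subject of the study, so cells with a Sox9 UMI were set beside the rest. In fGTS2 the 10 enzymes summed to 603.2 CPM in 2969 cells with a Sox9 UMI and to 658.6 in 1529 cells without one, a ratio of 0.916, with median depths of 22188 and 19166 UMIs. Phgdh had 96.31 CPM in the cells with a Sox9 UMI and 118 in those without. In GTML_SOX9GFP the sum was 1186 in 607 cells with a Sox9 UMI and 1116 in 4038 cells without one, a ratio of 1.06, which became 0.997 when at least 3 Sox9 UMIs were asked for. Deeper cells are more likely to show a Sox9 UMI. Over the cell cycle ranges Sox9 had highest to lowest ratios of 0.613 in fGTS2 and 0.944 in GTML_SOX9GFP, where the summed enzymes had 2.66 and 1.76. The part of the cell cycle in the split by Sox9 was not tested.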

How the data were processed

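The 10 genes, the surrounding gene lists and the marker lists were chosen with earlier results of these data known. Groups and replicate numbers came from sample titles, which match the column names. The description of every treated-line RNA sample but the last names the next column instead and was not followed. Per gene symbol, the authors deposited log2 CPM for bulk RNA. For ATAC the authors gave CPM by region, scaled to reads in the listed regions. The headers name no build, and mm9 was inferred from where regions lie relative to gene starts. Single cells came as UMI counts that the authors deposited per gene and cell. Named without roles in the submitters' processing notes are Bowtie2 2.2, Cell Ranger 3.3.0, MACS2, STAR 2.4.0, Seurat 3.0, Subread 1.5.2, edgeR, limma and the builds mm9 and mm10. Whole reads could be recovered from the treated-line and ATAC values, 100% of them within 0.1 read. The line naming no region in each ATAC table was left out, and 0 columns of per-sample values were unused.

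Two-sided tests used limma 3.58.1 under R 4.3.3 (moderated by a robust mean-variance trend), adjusted by Benjamini-Hochberg over all features at 0.05, and were run on log2 CPM with the 4 treated-line groups sharing one spread, on genes with CPM of at least 1 in 6 tumors or 3 line samples, and on log2(CPM + 1) of regions. The plan had assumed CPM for the bulk tables; the deposited values were already log2 and were used as such. Simulated libraries with known folds were run through limma for the tumors, for DOX in GTML3 RNA and for preGTS1 against GTML3 in ATAC. The GTML3 RNA case was also run through edgeR. Alternatives were edgeR 4.0.16 and DESeq2 1.42.0 on recovered reads, other pseudocounts, filters and scalings, the tumor column number as a batch term, a replicate block, and leaving out each sample. Genes named from the lists are the 3 called with the largest change, or fewer. Some genes that these rules name are not reported here. Intervals are exact ones at 95% (Poisson for levels, binomial for ratios) and cover counting error only, since PCR reads are not independent molecules. No cell filter or doublet caller was applied to the deposited cells. Counting strand is not given in the sources used here, so overlapping genes cannot be told apart. Sequences are RefSeq's.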

Additional observations from a re-analysis of the deposited data

Results flagged for a closer look

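The fall under DOX differed between preGTS1 and GTML3 for 6 enzymes by the interaction term of the limma fit. The difference in log2 response, preGTS1 minus GTML3, was 2.23 for Phgdh, 2.13 for Psat1, 1.73 for Mthfd2, 0.91 for Mthfd1l and 0.66 for Psph, each a smaller fall in preGTS1, and −2.70 for Shmt1, a larger fall in preGTS1. Over 20 sets of values tested, each of 1 enzyme in the GTS or the GTML tumors, 2 held a sample far from the others. Chance gives about 1 in 20 sets, but the sets share the same tumors and are not independent. Gldc in GTS tumor 1 was the highest of its group at 4.23 log2 CPM, with the other 5 GTS tumors at 0.27 to 1.56. Mthfd1 in GTML tumor 5 was the lowest of its group at 3.5 log2 CPM, with the other 7 GTML tumors at 6.73 to 8.14.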

How the results depend on the processing

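The number of the 10 enzymes called in the treated lines kept within 1.5 times of the reported 9 (preGTS1 under DOX), 8 (GTML3 under DOX), 7 (difference of responses), 9 (lines under DMSO) and 10 (lines under DOX) in every alternative run. The stricter filter removes Gldc and Aldh1l2, and DESeq2 calls Aldh1l2 in preGTS1, giving 10. In the tumors the 1 call became 0 with the column number as a batch term and 0 with median-centred libraries, and 0 to 4 with 1 tumor left out, 4 without GTS tumor 2; over all genes 924 calls became 9, 514 and 110 to 1530. The ATAC calls moved more. DOX in preGTS1 had 2 regions, 6 with edgeR, 1 with log2(CPM + 0.25) and 0 with any library left out, while calls over all regions were 3322, 23967, 732 and 161 to 217. DOX in GTML3 had 1 region, 4 with edgeR and 0 to 3 with a library left out. preGTS1 against GTML3 had 4 regions, 7 with edgeR, 2 with log2(CPM + 0.25), 9 with median-centred libraries and 2 to 4 with a library left out. GTS1 against GTML3 had 10 regions, 6 within 1 kb and 5 to 9 with a library left out. GTS2 against GTML3 had 8, 4 of them among the 10 within 1 kb, 9 with log2(CPM + 0.25) and 6 with median-centred libraries. Calls over all regions were 34967, 33803 with log2(CPM + 0.25) and 33925 with median-centred libraries. GFP against nonGFP had 1, and 0 to 1 with a library left out. Calls over all regions were 3486 for DOX in GTML3, 1917 with log2(CPM + 0.25) and 725 to 8395 with a library left out, 15773 for preGTS1 against GTML3, 9227 with log2(CPM + 0.25) and 5526 to 9827, and 3047 for GFP against nonGFP and 857 to 2541. On recovered reads edgeR called 11404 genes in preGTS1 and 10627 in GTML3 under DOX, against 10873 and 10484 by limma. The causes were not tested, apart from the fewer regions tested within 1 kb.

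With the replicate number as a block the calls stayed at 9, 8, 7, 9 and 10 in the lines and at 2, 1, 4, 10, 8 and 1 in the ATAC comparisons. Same-numbered treated-line RNA samples deviated together with r of −0.41 to 0.16. With 3 samples per group such values cannot decide whether a number stands for a shared culture or batch. The ATAC duplicates were not checked in this way. Among uncalled single values, leaving out 1 sample moved the tumor difference over −0.025 to 0.18 for Psph, −0.65 to 0.44 for Gldc and −0.14 to 0.18 for Aldh1l2, and the difference of responses over −0.084 to 0.002 for Shmt2, which was 0.014 with DESeq2. Aldh1l2 gave 0.17 in that difference with log2(CPM + 1). The Gldc call in that difference was lost with edgeR and DESeq2. Of 1081 single values under alternatives, 991 kept direction and side of the threshold, 67 lost the call, 7 gained it and 16 turned direction. The single-cell ratio of the summed enzymes was 0.538 and 0.532 with cells thinned to 5000 and 10000 UMIs. By Sox9 it was 0.874 in fGTS2 and 0.997 in GTML_SOX9GFP with at least 3 Sox9 UMIs. By cell cycle it was 2.549 and 2.469 in fGTS2 with the G2/M or the S-phase list alone, and 1.493 in GTML_SOX9GFP with the S-phase list. The depth of 0.827 to 1.748 M ATAC reads in GTML3 limits what can be seen at weak regions.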
